A study of Mus musculus with 2 samples.

Results

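The 10 genes described here make, break down or sense prostaglandins and leukotrienes, and were followed in single mononuclear cells of injured mouse quadriceps. The members were listed by symbol, and all 10 of them (Ptgs1, Ptgs2, Ptges, Ptgis, Hpgds, Hpgd, Ptger2, Ptger4, Alox5 and Alox5ap) were found among the 32285 genes of the count matrices. Prostaglandins and leukotrienes are lipid mediators made from arachidonic acid, which phospholipases free from membranes. Cyclooxygenases turn it into prostaglandin H2, and terminal synthases then turn that into prostaglandin E2, prostacyclin or prostaglandin D2. 5-lipoxygenase, working with its activating protein, starts the leukotriene branch instead. In injured tissue these lipids act on blood vessels, leukocytes and resident cells through receptors on the cell surface, and in muscle prostaglandin E2 is known to act on satellite cells, the stem cells of muscle fibres.

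Quadriceps of wild-type C57BL/6J male mice aged 14 weeks were injured by injection of barium chloride, a salt that kills muscle fibres, and were taken 1 or 3 days post injury. No gene was altered in either group, and both groups received the same injury. Mononuclear cells were released by enzymes, sorted on light scatter, frozen and later loaded on droplets for single-cell RNA sequencing, in which the 3' end of each captured transcript is counted once by its unique molecular identifier (UMI). There was 1 library a day, for which the paper pooled cells of several male mice. No uninjured library is used here. No difference between the days therefore has a replicate check, and no test was run on any of them.

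The matrices held 74852240 UMIs on day 1 and 102565783 on day 3. Cells were the barcodes of highest UMI rank, 7367 on day 1 and 6640 on day 3, and those with at least 1000 UMIs, at least 200 genes and at most 7.5% mitochondrial UMIs were kept, which left 6735 and 4627 cells at a median of 9389 and 14548 UMIs. The mitochondrial limit alone removed 7.02% of the cells on day 1 and 30.3% on day 3. The day 1 library was counted on a list of 737280 barcodes and the day 3 library on a list of 6794880, a difference in the making of the libraries that cannot be told apart from the day. The libraries shared 0 of the cell barcodes. Clusters were named from fixed marker genes as monocyte/macrophage-like (3502 cells on day 1 and 2798 on day 3), neutrophil-like (2075 and 261), fibroblast/FAP-like (645 and 824; FAPs are fibro-adipogenic progenitors), endothelial-like (82 and 26) and satellite cell/myoblast-like (6 and 200). A cluster led by H2-Eb1, an MHC class II gene (399 and 458 cells), and a cluster led by Tpsb2, a mast cell tryptase gene (26 and 60 cells), met no naming rule and stayed unnamed. The lead of the latter comes from its day 1 cells, since on day 3 Tpsb2 and 5 other genes of the 7 in the mast cell list were at 0 and the list summed to 15.4 CPM (UMIs of a gene per 1000000 UMIs of the group), while all 8 genes of the T/NK cell list had UMIs and summed to 3743 CPM. Groups of under 50 cells are not described, which left 11 groups of class and day.

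The cells that make up a class were not the same kind on both days. Of the 645 fibroblast/FAP-like cells of day 1, 636 lay in a cluster led by Cxcl5, and of the 824 of day 3, 814 lay in a cluster led by Sfrp2, so a difference between the days in this class is also a difference between clusters. The summed level of 8 fibroblast/FAP markers in this class was 6462 CPM on day 1 and 23477 on day 3, and none of the 8 was at 0. Among monocyte/macrophage-like cells, clusters led by Cd163, Ccl24 and Serpinb2 held 1188, 910 and 889 cells on day 1 against 13, 0 and 13 on day 3, and clusters led by Fcrls, Gpnmb and Rsad2 held 37, 3 and 35 against 1256, 598 and 562. The 261 neutrophil-like cells of day 3 had a neutrophil marker sum of 24437 CPM against 88787 on day 1, and their monocyte/macrophage markers summed to 3414 CPM against 367. Collagen reads in these cells, set against barcodes with at most 100 UMIs, put the share of free RNA at 29.5% on day 3 and 2.03% on day 1, so every neutrophil value of day 3 below comes from shallow cells (median 1661 UMIs) that also hold RNA of other types. How much these differences take part in any result below was not tested, except where a value is given.

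All levels are in CPM, computed from the pooled cells of a group, with the exact 95% Poisson interval in brackets where the value carries a comparison. Shares of cells with a UMI are given after each cell was randomly thinned to 1000 UMIs, which all kept cells reach, because deeper cells show more genes. Intervals of shares are exact binomial (Clopper-Pearson) ones. All of these intervals cover counting error in these libraries and not variation between mice. A log2 ratio sets day 3 over day 1 with 0.5 UMIs added to each side, and it was computed where a gene had at least 100 UMIs over both days in that class.

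**Figure D1:**
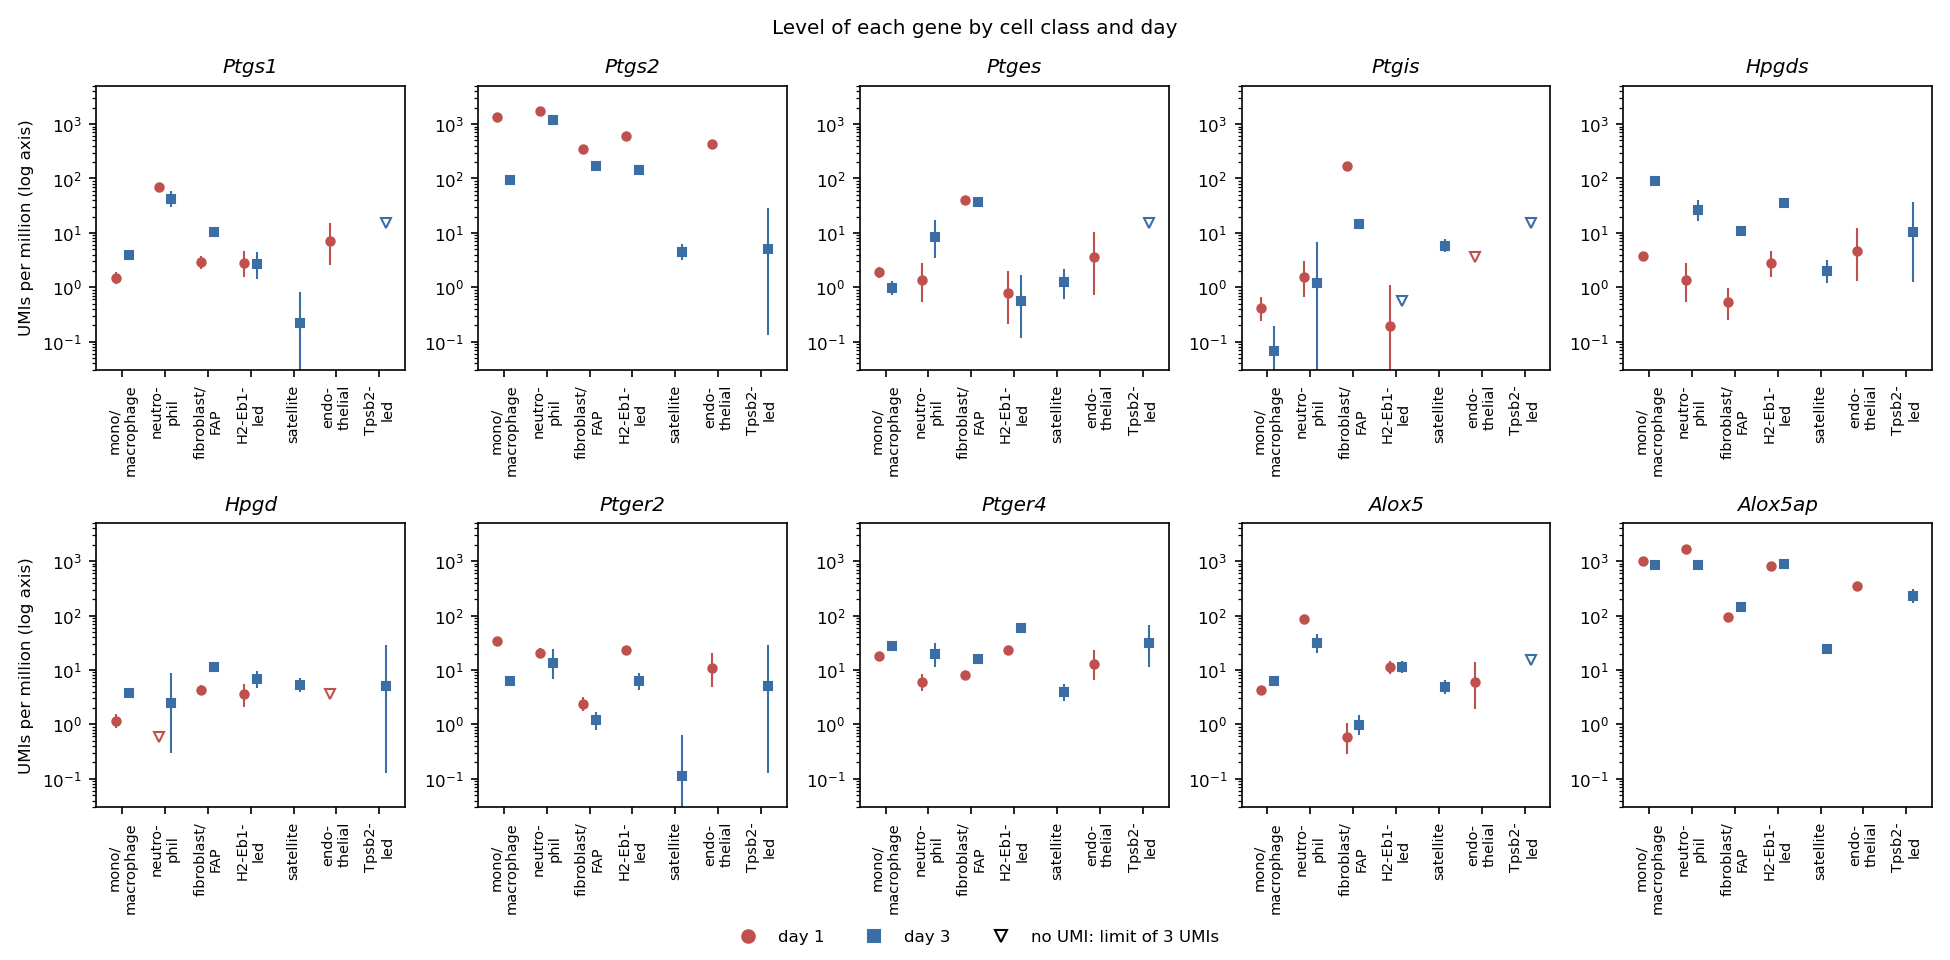
Level of each of the 10 genes (CPM of summed UMIs, log axis) by cell class, with day 1 and day 3 as separate points and exact 95% Poisson intervals as bars. Ptgs2 stands at 1357 CPM in monocyte/macrophage-like cells of day 1 and at 92.4 on day 3, while Ptgis (168 and 14.4) is nearly all in fibroblast/FAP-like cells and Hpgds (88.7) in monocyte/macrophage-like cells of day 3.

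Ptgs2 and Ptgs1 encode cyclooxygenase-2 and cyclooxygenase-1, the inducible and the more constant form of the enzyme that makes prostaglandin H2. Ptgs2 (ENSMUSG00000032487) lies at chr1:150100031-150108227 on the plus strand and Ptgs1 (ENSMUSG00000047250) at chr2:36230426-36252272 on the plus strand, both in GRCm38. Their promoters are shown because these genes of like enzymes had unlike levels in these cells. Each line gives 280 bases, from 250 before to 30 after the start of the transcript in RefSeq (GRCm38.p6), 5′ to 3′ on the gene's strand, with capitals at the motifs searched. The Ptgs2 window is chr1:150099781-150100060 and the Ptgs1 window chr2:36230176-36230455.
Ptgs2: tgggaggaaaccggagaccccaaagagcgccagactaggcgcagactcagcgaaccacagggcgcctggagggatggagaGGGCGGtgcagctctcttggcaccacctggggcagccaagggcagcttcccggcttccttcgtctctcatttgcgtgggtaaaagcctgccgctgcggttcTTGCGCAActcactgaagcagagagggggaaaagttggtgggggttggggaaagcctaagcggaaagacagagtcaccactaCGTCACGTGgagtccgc
Ptgs1: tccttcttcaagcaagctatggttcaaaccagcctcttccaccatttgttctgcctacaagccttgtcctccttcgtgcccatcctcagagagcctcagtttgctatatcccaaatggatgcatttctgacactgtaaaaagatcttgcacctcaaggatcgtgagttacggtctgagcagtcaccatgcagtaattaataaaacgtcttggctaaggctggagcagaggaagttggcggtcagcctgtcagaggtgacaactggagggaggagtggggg
The Ptgs2 window held a GC box (GGGCGG) at positions -170 to -165 from the start, a C/EBP motif (TTGCGNAA) at -69 to -62, the core of the cAMP response element (TGACG, on the minus strand) at 14 to 18 and an E-box (CACGTG) at 17 to 22, and the last pair overlap. Both strands were searched, and the share of all 32851 RefSeq promoter windows holding the motif was 34.7% for the GC box, 0.758% for the C/EBP motif, 19.9% for the cAMP response element core and 6.79% for the E-box. A TATA box (TATAAA, in 13.1% of windows), an AP-1 motif (TGANTCA, in 7.46%) and an NF-kappa-B motif (in 7.94%) had no match in it, and the Ptgs1 window had no match to any of the 7 motifs. Among the 8 members with a promoter in the table, which are all but Ptgis and Alox5ap, the C/EBP, cAMP response element and E-box letters were found in Ptgs2 alone, while the GC box was also in Ptges, Hpgd, Ptger4 and Alox5 and the TATA box in Hpgd. GC bases made up 61.4% of the Ptgs2 window and 49.6% of the Ptgs1 window, against a median of 52.5% over all windows. A match describes letters only and says nothing of a factor bound there. Positions count from the RefSeq start, and a missing match covers only these letters in these 280 bases, so sites further out were not searched.

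Ptgs2 had UMIs in all 11 groups, and on day 1 it was highest in neutrophil-like and monocyte/macrophage-like cells. On day 1 it was 1750 CPM [1714 to 1787] in neutrophil-like cells, 1357 [1346 to 1369] in monocyte/macrophage-like cells, 612 [590 to 634] in the H2-Eb1-led cells, 433 [390 to 480] in endothelial-like cells and 353 [345 to 362] in fibroblast/FAP-like cells. Neutrophil and macrophage reads in the endothelial-like cells put their share of free RNA at 38.6%, at which 295 of their 433 CPM would be free RNA. On day 3 it was 1173 [1100 to 1249], 92.4 [89.6 to 95.3], 145 [135 to 155] and 170 [165 to 176] in neutrophil-like, monocyte/macrophage-like, H2-Eb1-led and fibroblast/FAP-like cells, and 4.50 [3.21 to 6.12] in satellite cell/myoblast-like cells. In the order of the 11 groups no 2 neighbours had intervals that overlapped, apart from the Tpsb2-led and satellite cell/myoblast-like cells of day 3 at the bottom. The monocyte/macrophage-like class therefore went from the second place in the order on day 1 to the ninth on day 3, below the fibroblast/FAP-like cells of the same day.

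The log2 ratio of Ptgs2 in monocyte/macrophage-like cells was -3.88 [-3.92 to -3.83], beside a median of 0.45 over the 10672 genes measured in that class. The share of cells with a Ptgs2 UMI at 1000 UMIs was 53.0% on day 1 and 7.33% on day 3, and without thinning 80.8% and 35.8%. Satellite cell/myoblast-like cells of day 3, which are taken as cells that should lack the gene, had it in 0.50% of thinned cells at a median of 44104 UMIs, against a median of 11174.5 and 13839.5 UMIs in the monocyte/macrophage-like cells. On day 1, 32.9% of the thinned cells held at least 2 Ptgs2 UMIs and 7.80% at least 5, and the highest cell held 17. In the unthinned data the 10% of cells with the most Ptgs2 UMIs held 38.2% of them on day 1 and 67.0% on day 3. In the unthinned data a UMI of the gene was thus found in most cells on day 1 and in fewer cells on day 3. A lower level alone gives fewer cells with a UMI and a larger top share, so these values do not separate level from spread.

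The level also differed between clusters of monocyte/macrophage-like cells within a day. On day 1 it was 2314 CPM in the Ccl24-led cluster, 1742 in the Serpinb2-led cluster and 701 in the Cd163-led cluster, and on day 3 it was 80.8 in the Gpnmb-led cluster. The clusters with cells on both days also had lower values on day 3, with 342 and 86.6 CPM in the Fcrls-led cluster (log2 ratio -1.99), 431 and 84.8 in the Rsad2-led (-2.35), 544 and 167 in the Plac8-led (-1.71) and 285 and 187 in the Ifitm6-led (-0.60). With only the clusters that had at least 30 cells on both days the log2 ratio of the class was -1.76 in place of -3.88. These clusters were pooled, so their shares of the cells still differed between the days. The Ifitm6-led cluster had 394 cells on day 1 and 34 on day 3, and the Fcrls-led 37 and 1256. Neutrophil-like cells gave a log2 ratio of -0.58, with 58.1% of thinned cells holding a UMI on day 1 and 62.1% on day 3. The sign of the neutrophil value turned with the way cells were weighed, since the mean of single-cell CPM was 1659 on day 1 and 2125 on day 3.

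**Figure D2:**
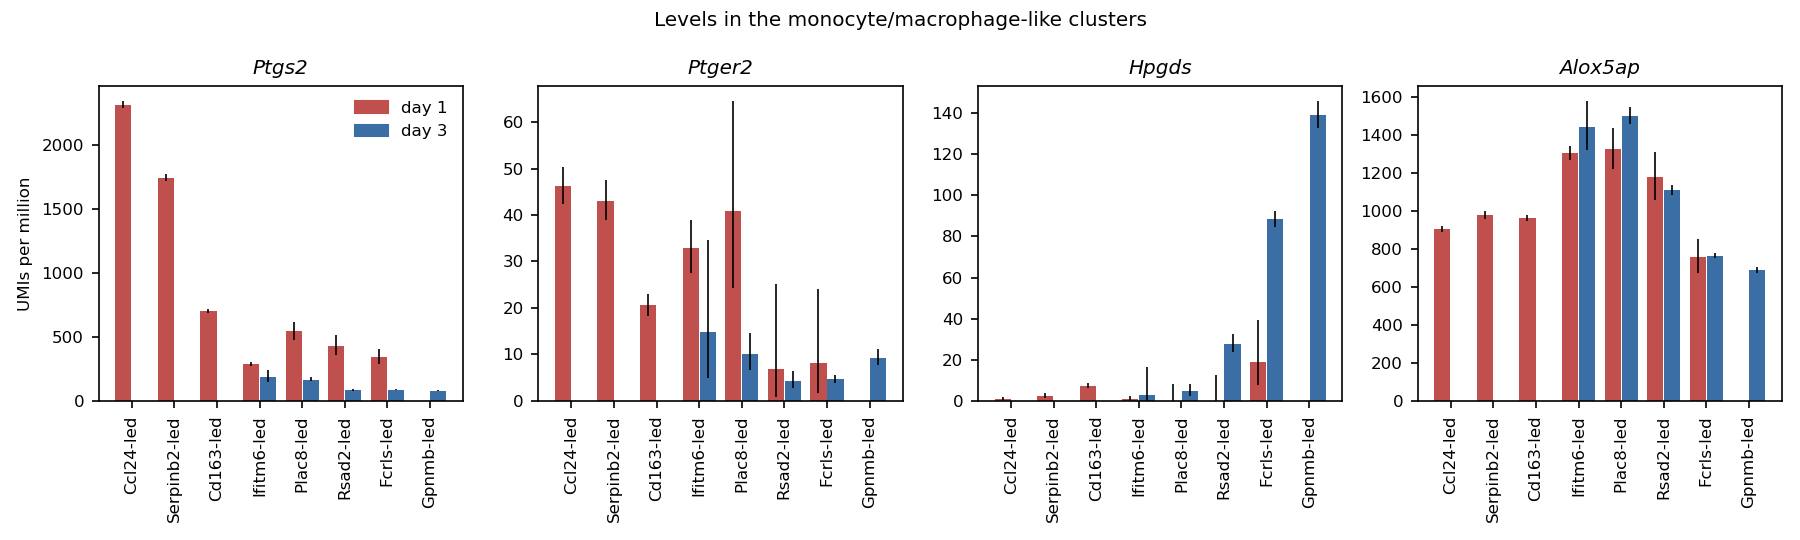
Levels of Ptgs2, Ptger2, Hpgds and Alox5ap (CPM, linear axis) in single clusters of monocyte/macrophage-like cells on day 1 and day 3. Clusters are named by their leading gene and shown on a day where they had at least 30 cells. Lines on the bars are exact 95% Poisson intervals. Ptgs2 is highest in the Ccl24-led cluster of day 1 (2314 CPM) and is at 80.8 in the Gpnmb-led cluster of day 3, where Hpgds is at 139.

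Fibroblast/FAP-like cells had a Ptgs2 log2 ratio of -1.05 [-1.11 to -1.0], with 22.3% of thinned cells holding a UMI on day 1 and 13.3% on day 3. The 10 day 3 cells of the Cxcl5-led cluster were at 365 CPM [284 to 461], its day 1 cells at 354 [345 to 362] and the Sfrp2-led cells of day 3 at 169 [164 to 174]. Macrophage genes were also read in fibroblast/FAP-like cells, where Csf1r, Adgre1 and Fcgr1 stood at 7.94% of their monocyte/macrophage-like level on day 1 and 12.7% on day 3. At those shares 108 of the 353 CPM of day 1 and 11.7 of the 170 of day 3 would be carried over, and the log2 ratio after subtraction was -0.63. The H2-Eb1-led cells had a log2 ratio of -2.08. Of all Ptgs2 UMIs in kept cells, monocyte/macrophage-like cells held 74.4% on day 1 and 40.9% on day 3, and fibroblast/FAP-like cells held 8.91% and 41.4%. These shares follow the numbers and depths of cells as well as levels.

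Ptgs1 was highest in neutrophil-like cells on both days. It stood at 70.7 CPM [63.6 to 78.4] there on day 1 and at 42.7 [29.8 to 59.4] on day 3, with a UMI in 6.80% and 6.51% of thinned cells and 0 of 200 satellite cell/myoblast-like cells of day 3 (upper limit 1.83%). The next group, fibroblast/FAP-like cells of day 3, was at 10.6 [9.35 to 12] against 2.92 [2.20 to 3.8] on day 1 (log2 ratio 1.85). Monocyte/macrophage-like cells were at 1.49 on day 1 and 3.99 on day 3, a log2 ratio of 1.41 that was just under 2-fold with only the clusters that had at least 30 cells on both days. Neutrophil RNA alone would put 1.36 and 0.74 CPM of Ptgs1 in monocyte/macrophage-like cells, as their 10 neutrophil markers stood at 1.93% and 1.72% of the neutrophil level, so the day 1 value is at that amount and the day 3 value above it. Neutrophil-like cells held 72.6% of the Ptgs1 UMIs of day 1 and 7.07% of those of day 3, when fibroblast/FAP-like cells held 52.1%. The neutrophil log2 ratio of -0.71 was 0.08 for the mean of single-cell CPM and cannot be given a direction.

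Ptges encodes the microsomal synthase that makes prostaglandin E2 (ENSMUSG00000050737, chr2:30889471-30929863, minus strand). It was a fibroblast/FAP gene on both days, at 40.0 CPM [37.2 to 43.0] on day 1 and 37.0 [34.6 to 39.5] on day 3, with intervals that overlapped and a log2 ratio of -0.11 that lay between -0.43 and 0.32 over the alternatives. These cells held 89.1% of its UMIs on day 1 and 93.3% on day 3. Monocyte/macrophage-like cells were at 1.91 [1.51 to 2.38] and 0.99 [0.72 to 1.33], and carry-over of fibroblast RNA, read from collagen genes at 0.33% and 0.45% of their fibroblast level, would give 0.13 and 0.17. Ptgs2 and Ptges were thus highest in different classes on day 1. This covers Ptges alone, since the other prostaglandin E2 synthase genes of the pathway list had UMIs in both of these classes.

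Ptgis encodes prostacyclin synthase (ENSMUSG00000017969, chr2:167191805-167240604, minus strand). In fibroblast/FAP-like cells it was 168 CPM [162 to 174] on day 1 and 14.4 [12.9 to 16] on day 3, a log2 ratio of -3.55 [-3.71 to -3.39], with a UMI in 13% and 1.33% of thinned cells. Ptgis was among the leading genes of the Cxcl5-led cluster that held the day 1 cells, beside Prg4 and Thbs4, and the tenocyte marker list summed to 982 CPM in fibroblast/FAP-like cells of day 1 and 364 on day 3. The 10 day 3 cells of the Cxcl5-led cluster were at 109 CPM [67.8 to 167] (21 UMIs), against 167 [162 to 173] in its day 1 cells and 13.6 [12.2 to 15.2] in the Sfrp2-led cells of day 3. Among day 3 cells the level was thus higher in the Cxcl5-led cluster, which had only 10 such cells. The Sfrp2-led cluster had only 9 day 1 cells, for which no level is given. The days therefore cannot be compared within it, and cluster and day cannot be told apart here. Fibroblast/FAP-like cells held 99.2% of the Ptgis UMIs of day 1 and 86.2% of those of day 3, when satellite cell/myoblast-like cells, at 5.85 CPM [4.37 to 7.67], held 12.8%. The gene had 20 UMIs over both days in monocyte/macrophage-like cells and no ratio was computed.

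Hpgds encodes hematopoietic prostaglandin D synthase (ENSMUSG00000029919, chr6:65117293-65144908, minus strand). It was 3.79 CPM [3.21 to 4.43] in monocyte/macrophage-like cells of day 1 and 88.7 [85.9 to 91.5] in those of day 3, a log2 ratio of 4.55 [4.32 to 4.79]. A UMI was found in 0.457% of thinned cells on day 1 and 7.0% on day 3, and without thinning in 2.83% and 49.2%. In satellite cell/myoblast-like cells of day 3 the thinned share was 1.00%, from 2 thinned UMIs, at a level of 2.02 CPM [1.20 to 3.20]. On day 3 it was 139 CPM in the Gpnmb-led cluster and 88.4 in the Fcrls-led cluster, against 27.8 in the Rsad2-led and 4.70 in the Plac8-led cluster. The Fcrls-led cells of day 1, which were only 37, were at 19.2, and the Cd163-led cells of that day at 7.38. Within the Fcrls-led cluster the log2 ratio was 2.11 [1.16 to 3.52], from 7 UMIs on day 1. Within the Rsad2-led cluster it was 4.01, from 0 UMIs on day 1. Ptgs2 and Hpgds thus had opposite orders of level over the days in this class.

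Other classes also had higher Hpgds values on day 3. Fibroblast/FAP-like cells were at 0.53 CPM on day 1 and 10.9 on day 3 (log2 ratio 4.29), and carry-over from macrophages alone would give 0.30 and 11.3. After that subtraction 4.34 UMIs were left over both days. The H2-Eb1-led cells were at 2.78 and 35.2 (log2 ratio 3.62), and their monocyte/macrophage markers summed to 3465 and 5025 CPM. Neutrophil-like cells were at 1.36 and 26.8, where carry-over from macrophages would give 43.6 on day 3. Monocyte/macrophage-like cells held 77.9% of the UMIs of the gene on day 1 and 88.8% on day 3.

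Hpgd encodes the dehydrogenase that inactivates prostaglandins (ENSMUSG00000031613, chr8:56294585-56321043, plus strand), and it was low in every class. Its highest level was in fibroblast/FAP-like cells of day 3, at 11.4 CPM [10.1 to 12.8] against 4.35 [3.46 to 5.40] on day 1, a log2 ratio of 1.38. Subtracting the RNA of macrophages left this ratio at 1.35. Monocyte/macrophage-like cells were at 1.15 [0.84 to 1.53] and 3.74 [3.19 to 4.35], a log2 ratio of 1.69 that was 0.25 with only the clusters that had at least 30 cells on both days. Satellite cell/myoblast-like cells of day 3 were at 5.28, with an interval that overlapped that of the H2-Eb1-led cells (6.78). Neutrophil-like cells of day 1 had 0 UMIs, where 3 counts would be 0.584 CPM and the exact interval reaches 0.718.

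Ptger2 and Ptger4 encode EP2 and EP4, the receptors through which prostaglandin E2 raises cyclic AMP. Ptger2 (ENSMUSG00000037759, chr14:44988195-45003820, plus strand) was highest in monocyte/macrophage-like cells of day 1, at 34.3 CPM [32.6 to 36.2] against 6.4 [5.68 to 7.19] on day 3, a log2 ratio of -2.42 [-2.61 to -2.24]. A UMI was found in 3.54% of thinned cells on day 1 and 0.50% on day 3. The share in satellite cell/myoblast-like cells of day 3 was also 0.50%, but from 1 thinned UMI. Their level was 0.11 CPM [0.003 to 0.63], below the 6.4 of the monocyte/macrophage-like cells of day 3. It was 46.2 CPM in the Ccl24-led, 43.1 in the Serpinb2-led and 20.6 in the Cd163-led cluster of day 1, an order like that of Ptgs2 in these clusters. The order did not hold over all clusters of day 1. The Ifitm6-led (32.8) and Plac8-led (40.8) were above the Cd163-led, while their Ptgs2 was 285 and 544 against 701. The Fcrls-led and Rsad2-led were below the Cd163-led for both genes. Within clusters the counts were small. The Plac8-led cluster was at 40.8 and 10.1 (18 and 28 UMIs, log2 ratio -2.03 [-2.92 to -1.07]), while the intervals of the Ifitm6-led (-2.79 to 0.12), Fcrls-led (-2.40 to 1.49) and Rsad2-led (-2.66 to 2.46) clusters held 0. The H2-Eb1-led cells were at 23.4 and 6.21 (log2 ratio -1.90), and fibroblast/FAP-like cells at 2.39 and 1.19, where carry-over from macrophages would give 2.73 and 0.81.

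Ptger4 (ENSMUSG00000039942, chr15:5206661-5244187, minus strand) had higher levels on day 3 in these classes. It was highest in the H2-Eb1-led cells of day 3, at 58.2 CPM [51.9 to 65.0] against 23.2 [19.2 to 27.8] on day 1, a log2 ratio of 1.32. Monocyte/macrophage-like cells were at 17.9 [16.6 to 19.2] and 27.3 [25.8 to 28.9] and fibroblast/FAP-like cells at 8.01 [6.78 to 9.40] and 15.6 [14.1 to 17.3], log2 ratios of 0.61 and 0.96, of which the latter was past 2-fold in 4 of 11 alternatives. Clusters within the monocyte/macrophage-like class differed in order, with 9.07 and 31.8 CPM in the Plac8-led cluster (4 and 88 UMIs), 38.3 and 26.7 CPM in the Fcrls-led cluster (log2 ratio -0.57 [-1.28 to 0.36]) and 48.6 and 36.8 in the Rsad2-led (-0.45 [-1.18 to 0.49]). Macrophage carry-over would give 1.42 and 3.47 CPM in the fibroblast/FAP-like cells.

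Alox5 encodes 5-lipoxygenase, which starts leukotriene synthesis (ENSMUSG00000025701, chr6:116410077-116461178, minus strand). It was highest in neutrophil-like cells, at 85.9 CPM [78.1 to 94.3] on day 1 and 31.7 [20.7 to 46.5] on day 3, a log2 ratio of -1.41 [-2.07 to -0.87], with a UMI in 8.77% and 4.98% of thinned cells. This ratio lay between -2.59 with 20 principal components and -0.58 with cells named by their highest marker score, and was at least 2-fold in 4 of 10 alternatives. With 20 principal components the class also held a cluster of 91 and 229 cells led by the monocyte/macrophage markers Plac8 and Ly6c2. The H2-Eb1-led cells were at 11.3 on both days (log2 ratio -0.00), and monocyte/macrophage-like cells at 4.32 [3.71 to 5.01] and 6.38 [5.66 to 7.16]. Neutrophil-like cells held 63.7% of the Alox5 UMIs of day 1 and 5.95% of those of day 3, when the class had 261 cells.

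Alox5ap encodes the membrane protein that presents arachidonic acid to 5-lipoxygenase (ENSMUSG00000060063, chr5:149264767-149288153, plus strand), and it was spread over all leukocyte groups. Neutrophil-like cells were at 1647 CPM [1612 to 1682] on day 1 and 857 [795 to 923] on day 3, monocyte/macrophage-like cells at 987 [978 to 997] and 843 [834 to 851], and the H2-Eb1-led cells at 810 [786 to 836] and 897 [872 to 923]. The log2 ratios were -0.94, -0.23 and 0.15, all under 2-fold. A UMI was found in 61.8% and 58.4% of thinned monocyte/macrophage-like cells, against 3.00% of satellite cell/myoblast-like cells of day 3. The monocyte clusters led by Ifitm6 and Plac8 had the higher levels within that class, at 1305 and 1325 CPM on day 1 and 1445 and 1502 on day 3. Fibroblast/FAP-like cells were at 93.8 and 144, where carry-over from macrophages would give 78.4 and 107, and their log2 ratio of 0.62 was 1.28 after that subtraction. The lipoxygenase gene and the gene of its activating protein were therefore highest in the same group, neutrophil-like cells of day 1, but only the latter was high in monocyte/macrophage-like cells.

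**Figure D3:**
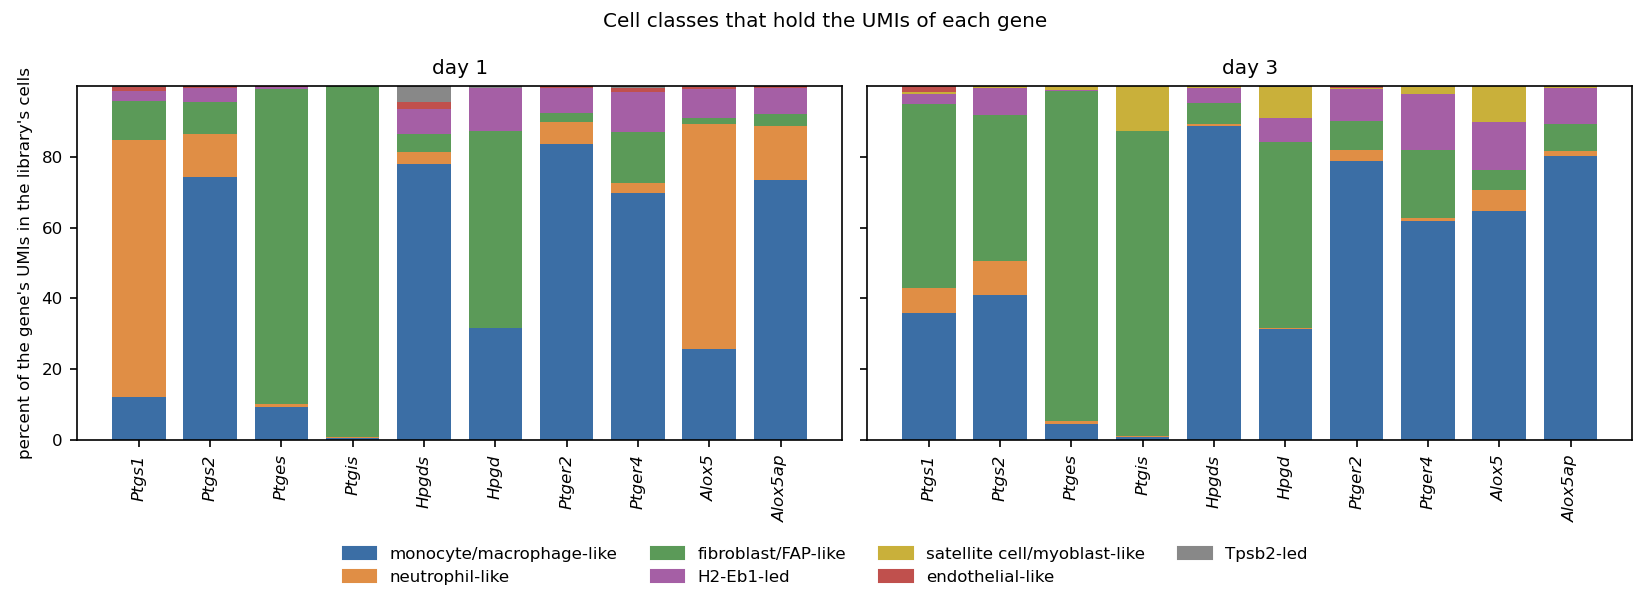
Percent of each member's UMIs in the kept cells that each cell class held, as stacked bars for day 1 and day 3. On day 1 monocyte/macrophage-like cells held 55569 of 74673 Ptgs2 UMIs and fibroblast/FAP-like cells 3170 of 3197 Ptgis UMIs. On day 3 monocyte/macrophage-like cells held 3935 of 4431 Hpgds UMIs.

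Counted together, 9 of the 10 members had enough UMIs for a ratio in monocyte/macrophage-like cells. Ptgs1, Hpgds and Hpgd were at least 2-fold higher on day 3, beside 27.2% of all 10672 genes, and Ptgs2 and Ptger2 at least 2-fold lower, beside 4.87% of them. In fibroblast/FAP-like cells 8 members had a ratio, of which Ptgs1, Hpgds and Hpgd were at least 2-fold higher (all genes, 21.2% of 11222) and Ptgs2 and Ptgis lower (7.08%). With macrophage RNA subtracted the higher ones were Ptgs1, Hpgd and Alox5ap and the lower one Ptgis. In neutrophil-like cells 5 members had a ratio, 0 were 2-fold higher (28.6% of 4278 genes) and Alox5 was lower (11.1%). In the H2-Eb1-led cells 6 members had a ratio, Hpgds and Ptger4 were higher (12.2% of 6965 genes) and Ptgs2 and Ptger2 lower (3.58%). The median log2 ratio of the members was 0.56, 0.79, -0.71 and 0.07 in these 4 classes, beside 0.45, 0.26, 0.33 and 0.22 over all genes. With 9 members or fewer a class, these counts are read as a list of genes and not as a property of the pathway.

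**Figure D4:**
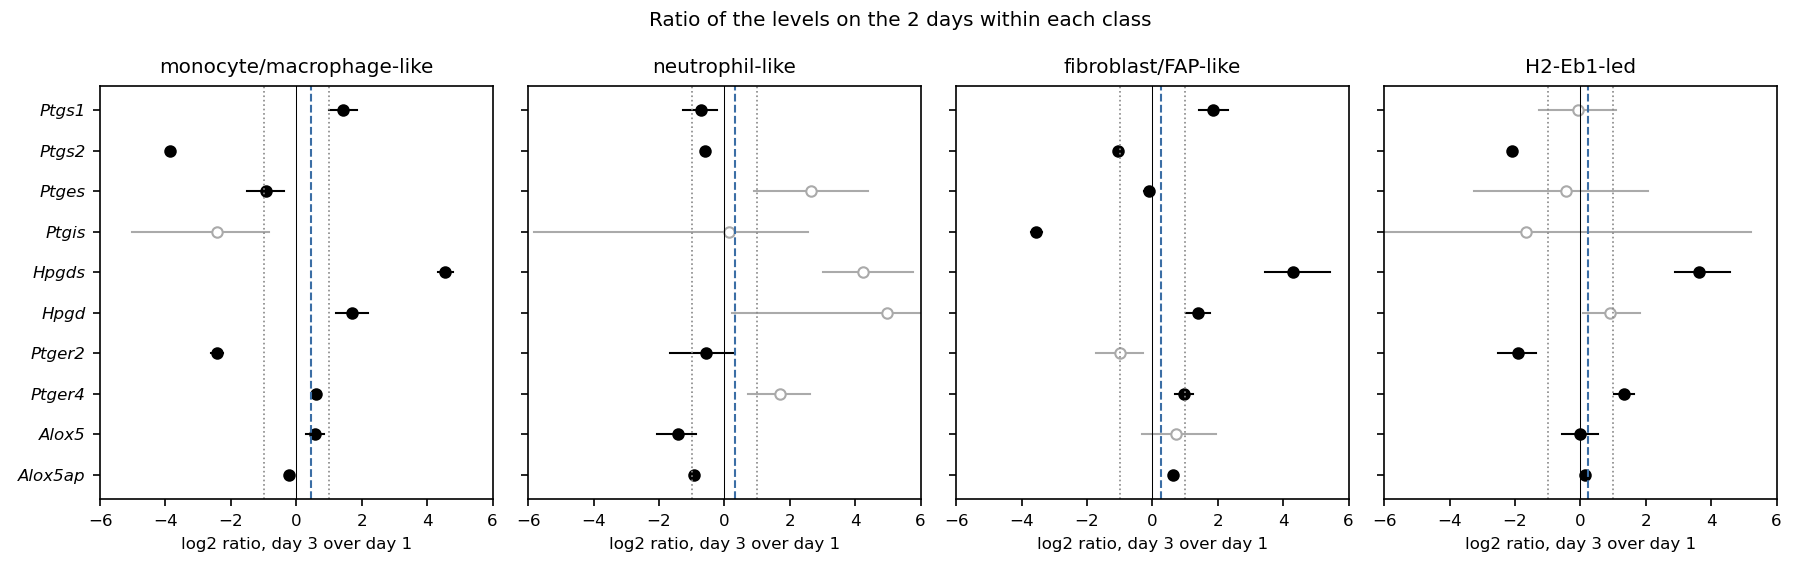
Log2 ratio of day 3 over day 1 for each member in 4 cell classes, with exact 95% intervals from counts as bars and lines at 2-fold in either direction. In monocyte/macrophage-like cells Ptgs2 lies at -3.88 and Hpgds at 4.55, and in fibroblast/FAP-like cells Ptgis lies at -3.55.

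The pairs Ptgs2 with Ptges and Hpgds with Hpgd were seldom found in the same thinned cell. Alox5 was itself rare in monocyte/macrophage-like cells, but 8 of the 12 cells of day 1 with it also had Alox5ap. On day 3 this was 10 of 19 cells. Alox5ap was found in 61.8% and 58.4% of all thinned cells of this class. In monocyte/macrophage-like cells of day 1, 0.38% [0.15 to 0.78] of the 1857 cells with a Ptgs2 UMI had a Ptges UMI, and 0.12% [0.01 to 0.44] of the 1645 without. In fibroblast/FAP-like cells the shares with Ptges were 1.39% of 144 and 3.79% of 501 on day 1, and 5.45% of 110 and 5.04% of 714 on day 3. Of 196 monocyte/macrophage-like cells of day 3 with Hpgds 0.51% had Hpgd, and of 2602 without it 0.50% did. At 1000 UMIs a cell these shares cannot show whether the enzymes were made by the same cells.

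Beside the members, a list of 45 other genes of the eicosanoid pathway was read. In monocyte/macrophage-like cells 27 of them had a ratio, 8 at least 2-fold higher on day 3 and 3 lower, beside 27.2% and 4.87% of all genes, with a median log2 ratio of 0.46 against 0.45. The share of higher ones was thus near that of all genes. The higher ones were Plaat3, a phospholipase gene (3.54 and 27.3 CPM), and Cbr1 (5.01 and 16.9), Cbr2 (65.6 and 185), Akr1b3 (63.7 and 167) and Prxl2b (23.2 and 63.1), reductase genes that can act on prostaglandins. Also higher were Ptgr1, which acts on prostaglandins and leukotriene B4 (6.99 and 35.7), and Ltc4s (2.81 and 23.1) and Mgst3 (6.37 and 59.0), which can make leukotriene C4. The lower ones were the leukotriene B4 receptor gene Ltb4r1 (292 and 30.7, log2 ratio -3.25), the dipeptidase gene Dpep2 (48.9 and 21.3) and the lipoxin receptor gene Fpr2 (33.4 and 8.02).

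In fibroblast/FAP-like cells 30 of the 45 had a ratio, 10 higher and 4 lower, beside 21.2% and 7.08% of all genes, with a median of 0.37 against 0.26. Ggt5, which cleaves leukotriene C4 (6.0 and 67.3 CPM), Mgst3 (3.50 and 46.6), Ptgr1 (4.78 and 32.1), Plaat3 (19.0 and 50.3) and the prostaglandin F receptor gene Ptgfr (7.37 and 16.4) were among the higher. The prostaglandin transporter gene Slco2a1 was 93.9 and 13.7 CPM, a log2 ratio of -2.78, and Ptges2, another synthase gene, was 35.8 and 17.0. Pla2g7 (12.2 and 25.6) and Cbr2 (5.52 and 17.3) were also higher, but carry-over from macrophages would leave 0 and 5.89 UMIs of them. In neutrophil-like cells 10 had a ratio, 3 higher and 4 lower, beside 28.6% and 11.1% of all genes and with a median of 0.34 against 0.33, and Ltb4r1 (251 and 59.8 CPM), Fpr2 (290 and 101) and Cyp4f18, which breaks down leukotriene B4 (706 and 272), were lower. In the H2-Eb1-led cells 20 had a ratio, 5 higher and 1 lower, beside 12.2% and 3.58% of all genes and with a median of 0.26 against 0.22, the lower one being Ltb4r1 (242 and 47.6).

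Genes among the 3 whose levels were most like those of each member were taken from Pearson's r of log2(CPM + 10) over the 11 groups, among 10371 genes. The 11 points come from only 2 libraries and differ in depth, so r is a description. For Ptgs2 these were Ier3 (0.978), Cxcl2 (0.963) and Smim3 (0.946), and for Ptgs1 Ptgs2os2 (0.963), 5830428M24Rik (0.955) and Il1f9 (0.952). For Ptges they were Twist1 (0.998), Aldh1a1 (0.995) and Layn (0.994), and for Ptgis Wnt2 (0.985), Aldh1a3 (0.980) and Penk (0.976). Hpgds was most like Siglec1 (0.980), Gm13212 (0.978) and Syngr1 (0.967), and Hpgd most like Gatd1 (0.933), Phlpp2 (0.924) and Panx1 (0.905). Ptger2 had Ltb4r1 (0.960), Hilpda (0.949) and Bst1 (0.945), and Ptger4 had Tap1 (0.966) and Dock10 (0.959). Alox5 had Siglece (0.970), Treml4 (0.969) and Cass4 (0.965), and Alox5ap had Skap2 (0.991) and Spi1 (0.990).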

How the data were processed

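The authors deposited, for each library, a matrix of raw UMI counts per gene and barcode. Per the submitters' processing notes it was made with Cell Ranger 5.0.0 on the mouse genome mm10, while the matrix header names another version. The counts were not normalized or pooled across libraries, and no cell type names came with the files. The members, gene lists and settings were chosen with earlier results of these data known.

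Cells were taken by UMI rank and filtered as described above. They were clustered with Seurat 5.3.0 and sctransform 0.4.2 in R 4.3.3 (10 principal components, resolution 0.8), with the members, the markers and the pathway genes left out of the 3000 variable genes. A cluster took the name of the marker list with the highest mean fold over the 20th percentile of the clusters, where at least 3 of its markers stood 2-fold over it and its leading 10 genes did not go against the name. Scrublet, run in scanpy 1.11.5, marked 1 cell on day 1 and 0 on day 3, so it had not worked, and no doublets were removed from the values given. An alternative removed 363 and 171 cells by the expected rate of 0.8% per 1000 cells.

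Counts were summed per class and day in Python 3.11.15 (numpy 2.4.6, scipy 1.17.1). With 1 library a day no count model was fitted and no p-value computed, and a gene was called at a log2 ratio past 1 in size. The depth per class sets the precision: 1 UMI is worth less in a class with more UMIs, which the intervals show. Members were all named, other pathway genes where they had at least 500 UMIs in the class and a call, and like genes as the 3 with the highest r, of which 2 genes are not reported here. Carry-over is the level of the source class times the share at which its markers stood in the receiving class. The ratio code was tested on simulated counts. Alternatives changed the call of cells, the mitochondrial limit (15%), a floor on genes per UMI, doublets, normalization, principal components (20), resolution (0.4), naming, the count minimum (20), thinning and the subtraction of free RNA. The subtraction of macrophage RNA and the restriction to clusters with at least 30 cells on both days were added after seeing the data. That restriction pools the kept clusters and does not make their shares of the cells equal between the days.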

Additional observations from a re-analysis of the deposited data

How the results depend on the processing

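Each alternative changed one choice. Of 52 recomputed counts of called members in monocyte/macrophage-like and fibroblast/FAP-like cells 42 stayed within 1.5 times, and 10 did not. In fibroblast/FAP-like cells the count of members at least 2-fold higher on day 3 was 3. It was 5 with cells named by their highest marker score, 5 with doublets removed and 0 with cells thinned to 1000 UMIs, where only 3 members kept enough UMIs. Naming by the highest score left 155 and 423 fibroblast/FAP-like cells on day 1 and day 3. It called 745 cells of day 1 erythroid-like and 707 Schwann cell-like, names that no cluster received. The count lower was 2, and 1 with free RNA subtracted, with doublets removed, with cells under 200 genes per 1000 UMIs removed, as the mean of single-cell CPM and with macrophage RNA subtracted, because Ptgs2 then lay between -0.35 and -0.91 in log2 ratio. The called members also changed where the count stayed within 1.5 times. With macrophage RNA subtracted Alox5ap took the place of Hpgds. With the floor on genes per UMI the higher ones were only Ptgs1 and Ptger4. In monocyte/macrophage-like cells the count higher was 3. It was 1 with cells thinned to 1000 UMIs, where 5 members had a ratio, and 1 with only the clusters that had at least 30 cells on both days. The count lower there was 2, and 3 with free RNA subtracted and with a minimum of 20 UMIs a gene. Over the same class the split of all genes, 27.2% higher and 4.87% lower, was 12.4% and 5.16% after thinning.

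Of 252 log2 ratios of members, 167 stayed within the counting interval, 85 moved and no called one changed sign. They leave out settings that left a gene under 100 UMIs, where Hpgds in fibroblast/FAP-like cells was -3.64 from 4.34 UMIs with macrophage RNA subtracted and -0.24 from 27 UMIs with the floor on genes per UMI. Ptgs2 in monocyte/macrophage-like cells lay between -4.15 and -1.76, Hpgds between 3.98 and 4.93 and Ptger2 between -2.90 and -2.27, and Ptgis in fibroblast/FAP-like cells between -4.07 and -3.19. In neutrophil-like cells the lower call, Alox5, was lost in 6 alternatives (single-cell mean, thinning, mitochondrial limit, doublets, log-normalization and marker score), was joined by Alox5ap with free RNA subtracted and by Ptgs1, Ptgs2 and Ptger2 with 20 principal components. With 20 principal components this class, of 2147 and 466 cells, took in a cluster of 91 and 229 cells led by Plac8 and Ly6c2. Both are monocyte/macrophage markers, and how much that cluster moved these calls was not tested. In the H2-Eb1-led cells Hpgds and Ptger4 fell under 100 UMIs after thinning. In neutrophil-like cells Ptgs2 lay between -1.77 and 0.36, and the subtraction of free RNA moved the split of all genes there from 28.6% higher and 11.1% lower to 15.7% and 18.1%. All 27 shares of cells moved when thinned to 3000 in place of 1000 UMIs. More UMIs a cell raise the chance of a UMI, so these moves are no check of stability. Cells under 3000 UMIs were also left out there, among them 1781 of the 2075 neutrophil-like cells of day 1. With the stricter call of cells only 6 neutrophil-like cells of day 3 were left and gave no value. The cause of the other moves was not tested. No paired analysis was possible because there is 1 library a day.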
